A study of Mus musculus with 60 samples.

Results

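The livers of 10 female mice of the Collaborative Cross inbred strain CC042/GeniUnc were compared after 20 weeks of feeding. Of these, 5 had eaten TD.88137, rich in fat and sucrose (HF/HS), with 42% of its calories from milkfat, 0.2% cholesterol and over 30% sucrose. The other 5 had eaten TD.08485, an ingredient-matched control diet that is low in fat and reduced in sucrose. They are the 10 of 60 libraries whose labels give female sex and 20 weeks, chosen by those labels and by no measured value. The remaining libraries come from males at 20 weeks and from both sexes at 40 and 60 weeks on the same diets, 5 animals in each of 12 groups. No transgene, drug or injury is named in the labels, ages of the animals are not in the labels, and every value rests on a single inbred strain. Total RNA depleted of ribosomal RNA was sequenced, and the level of a gene is given as its CPM, its counts scaled to the depth of the library.

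Dietary cholesterol reaches the liver in lipoproteins and is sensed in the endoplasmic reticulum, where plentiful sterol keeps the transcription factor SREBP2 from being processed and so lowers transcription of the enzymes that make cholesterol. Triglyceride that the liver neither burns nor exports is stored in lipid droplets, whose coat proteins are partly under the nuclear receptor PPARγ, whereas PPARα drives the oxidation of fatty acids in mitochondria and peroxisomes. Prolonged steatosis in mice is known to bring in macrophages that take up lipid, to activate stellate cells that lay down collagen, and to raise the risk of liver tumours.

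The 10 libraries held 11868172 to 19012230 counts. Alb, the gene of serum albumin, averaged 13590 CPM on the control diet and 12890 CPM on HF/HS, and the X-inactivation transcript Xist lay between 3645 and 4481 CPM while the Y-linked genes Uty and Kdm5d stayed at or below 0.0620 CPM. Libraries of the same diet correlated at r = 0.971 to 0.990 over genes. The median r of a library was 0.975 to 0.987 with its own diet and 0.966 to 0.983 with the other diet. The first principal component, 29.9% of the variance, placed all control livers on its negative side and all HF/HS livers on its positive side. Control animal 383 stood apart on the second component (19.4% of the variance). It had the highest acute phase genes of all 10. Control animal 381 had the highest, and HF/HS animal 302 the lowest, genes of cholesterol synthesis. Where results rested on these animals, values without them are given for many genes but not for all. Animal numbers are those in the labels, which do not say whether cages or litters were shared, and animals were treated as independent. Unless stated otherwise, p-values rest on a spread between animals estimated over all 60 libraries in 12 groups, not over these 10 alone.

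At a Benjamini-Hochberg adjusted p under 0.05 in edgeR's quasi-likelihood test, 2872 of 14180 genes tested differed between the diets (20.3%). Of these, 1351 were higher on HF/HS (9.53%) and 1521 were lower (10.7%), and these shares are the background against which the counts of each gene group are to be read. The groups were chosen with earlier results of these data known, so a count above the background is not independent evidence. Most differences were small. Only 245 of the higher and 150 of the lower genes changed at least 2-fold. Among called genes, the median size of the log2 fold change, without its sign, was 0.36. Over all genes tested, the signed median, in which rises and falls cancel, was 0.01. In 722 genes (5.09%) all 5 HF/HS livers lay above all 5 control livers, and in 768 genes (5.42%) all lay below. The animals carry numbers under and from 350, and these ranges are not balanced (2 control and 3 HF/HS animals under 350, 3 and 2 from 350). Of all genes, 198 were called within the lower and 5 within the higher range. When these 10 libraries were fitted alone, 713 genes were higher and 732 lower, and with the number range as a covariate in that fit (here the covariate fit) 592 and 605. Counts of a gene group that moved by over 1.5 times in those fits, or in limma voom, are given with the group. Log2 fold changes are HF/HS minus control and are given ± standard error, with 5 animals a group throughout.

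**Figure D1:**
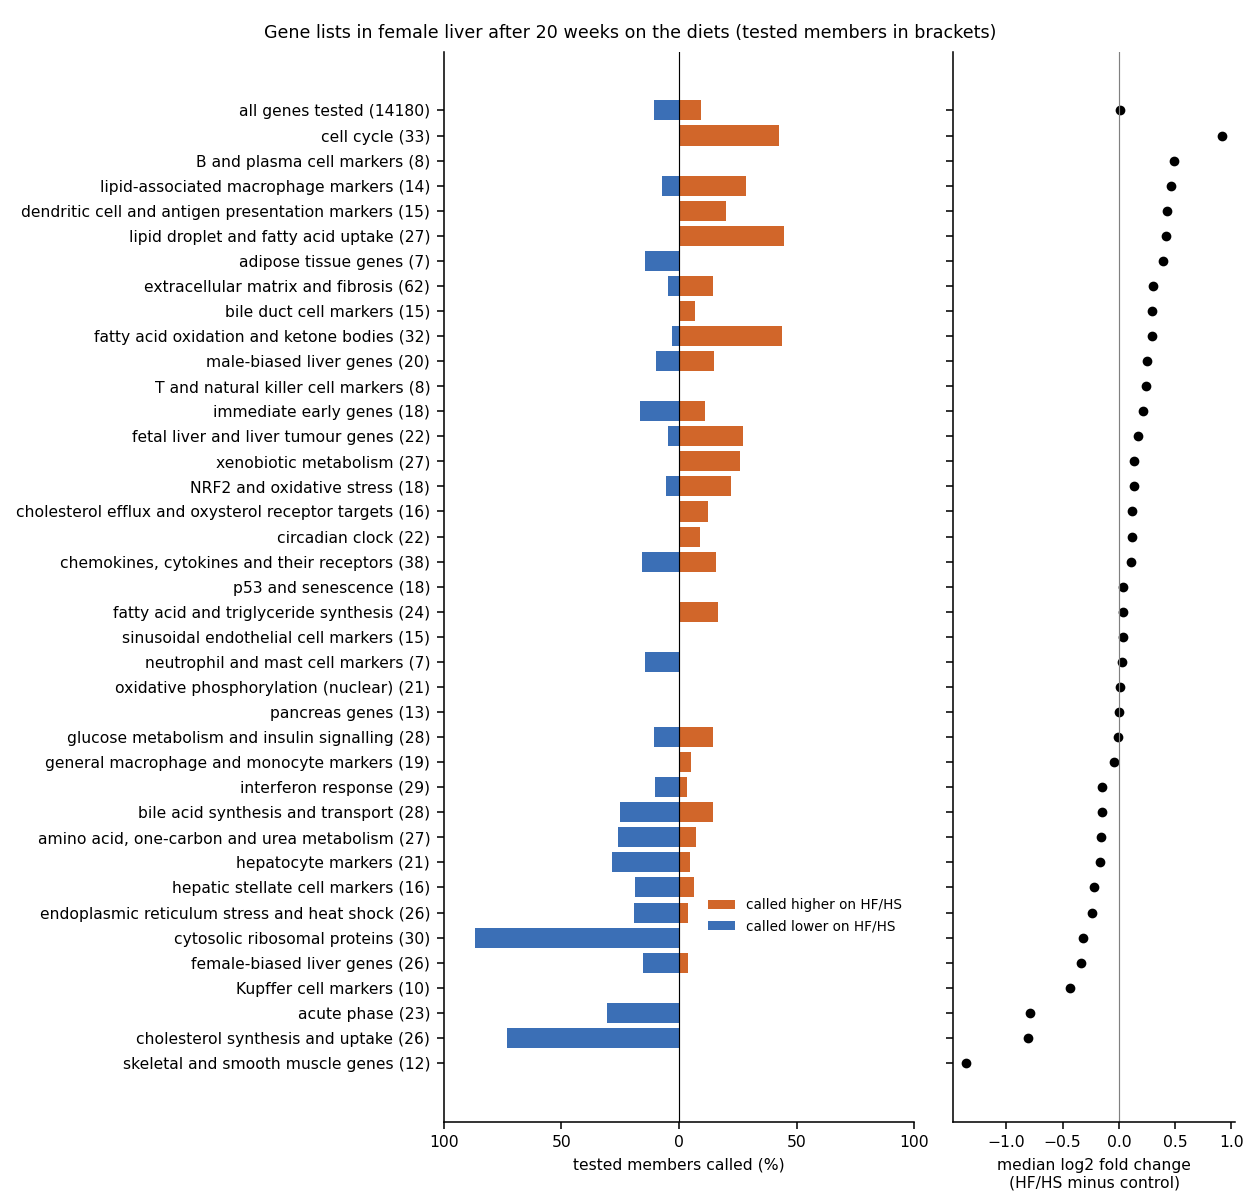
Share of the tested members of each gene list called higher (orange, to the right) or lower (blue, to the left) on HF/HS, in percent, beside the median log2 fold change of the list. The cholesterol synthesis list (19 of 26 lower) and the cytosolic ribosomal protein list (26 of 30 lower) reach farthest to the left, and the lipid droplet list (12 of 27 higher), the fatty acid oxidation list (14 of 32) and the cell cycle list (14 of 33) farthest to the right. The erythroid and gut lists, with 3 and 2 tested genes, are not drawn.

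Among genes averaging at least 1 CPM, the largest rise was in Sprr1a, a small proline-rich protein of the cornified envelope of squamous epithelia, which lies at chr3:92483952-92485895 on the minus strand (mm10, GENCODE M21). Its counts summed to 3 in the 5 control libraries and to 530 in the HF/HS libraries, a ratio of 197 after adjustment for depth (exact 95% interval 67.1 to 959, counting error only). Cyp3a11 (chr5:145854426-145879964, minus strand), a cytochrome P450 that oxidises drugs and steroids, was at 8.55, 4.27, 2.58, 6.74 and 2.54 CPM in the control livers and 290.1, 90.8, 250.1, 86.8 and 306 CPM in the HF/HS livers. The lowest HF/HS liver was about an order of magnitude above the highest control liver, and the log2 fold change was 5.36 ± 0.54 (adjusted p = 5.5e-10). Muc13, a membrane mucin of gut and bile duct epithelia, was at 0, 0.06103, 0.369, 0.0591 and 0.186 CPM in the control livers and 3.54, 1.69, 3.23, 1.67 and 4.26 CPM in the HF/HS livers. No HF/HS liver overlapped a control liver, with a log2 fold change of 4.37 ± 0.98 (adjusted p = 0.001), a call that voom did not make (adjusted p = 0.118). The keratin Krt23 (chr11:99477974-99493137, minus strand) was at 1.88, 1.89, 2.52, 3.66 and 0.124 CPM in the control livers and 45.1, 22.5, 37.3, 17.9 and 35.5 CPM in the HF/HS livers. The ranges did not touch, and control animal 383 was the lowest by a wide margin. The log2 fold change of Krt23 was 3.96 ± 0.60 (adjusted p = 4.5e-06). Rbm24, an RNA-binding protein known from muscle, and Gprc5b, an orphan G protein-coupled receptor, rose by 3.73 ± 0.59 and 3.39 ± 0.62 on the log2 scale without overlap between the groups.

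Among the genes that fell farthest, Shbg, the plasma carrier of sex steroids (chr11:69614804-69617905, minus strand), was at 11.03, 2.69, 2.09, 4.49 and 8.31 CPM in the control livers and 0.0842, 0.3497, 0.183, 0.364 and 0.125 CPM in the HF/HS livers. Every HF/HS liver was below every control liver, with a log2 fold change of -4.62 ± 0.54 (adjusted p = 1.96e-08). Enho, which encodes the secreted peptide adropin, was at 7.89, 1.04, 1.23, 2.48 and 20.03 CPM in the control livers and 0.505, 0.3497, 0.793, 0.364 and 0.439 CPM in the HF/HS livers. The control livers spread widely while the HF/HS livers stayed close together, and the log2 fold change was -3.71 ± 0.67 (adjusted p = 4.96e-05). The protocadherin Pcdh20 fell by 4.64 and the multiple-EGF-domain protein Megf11 by 3.56 on the log2 scale, also without overlap. Fabp12, of the fatty acid binding protein family, and Hsd3b1, of the 3β-hydroxysteroid dehydrogenases, fell by 3.22 and 3.48. Serpina1e, an α1-antitrypsin gene with near-identical neighbours that can share reads, was at 563, 129, 138, 193 and 1493 CPM in the control livers and 8.501, 73.2, 60.1, 56.7 and 36.1 CPM in the HF/HS livers, a log2 fold change of -3.42 ± 0.59 (adjusted p = 3.16e-05). Control animal 383 was the highest liver for Enho and Serpina1e and stood apart for Fabp12 (6.76 CPM). Over the 10 fits that each left out a library, the smallest log2 fold changes were -2.69 for Enho, -2.40 for Fabp12 and -2.46 for Serpina1e. All 3 kept their calls. Control animal 383 was also the highest library for Prtn3, a serine protease, with 85.5 CPM against at most 7.61 CPM in any other control liver. The fall of 6.77 in Prtn3 was not called without that animal (-4.25, adjusted p = 0.0886), and the fall of the lens crystallin Crybb3 moved from 4.49 to 2.52 but was still called (adjusted p = 0.0496).

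Genes of cholesterol synthesis fell together. Of the 26 genes on the cholesterol synthesis and uptake list, all of which were tested, 19 fell and 0 rose, against a background of 10.7% and 9.53%. The median log2 fold change was -0.81, and in 14 members no HF/HS liver reached the control range. By role, 16 of the 20 enzymes fell, and 3 of the 5 regulators, among them Scap, the escort of SREBP2, and Stard4, a sterol carrier.

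The promoters of 4 enzymes are printed because they span the range of responses in the pathway, from large falls (Idi1, Cyp51, Msmo1) to an enzyme that did not pass the test (Hmgcs1). Each is the 250 bases before the RefSeq transcript start, 5′ to 3′ on the gene's strand (RefSeq, GRCm38.p6, the same assembly as mm10). Capitals mark a CCAAT box, the element bound by NF-Y, on either strand (CCAAT or ATTGG), and in Hmgcs1 also the sterol element letters TCACNCCAC, where N is any base.
Idi1 (chr13:8885356-8885605, plus strand): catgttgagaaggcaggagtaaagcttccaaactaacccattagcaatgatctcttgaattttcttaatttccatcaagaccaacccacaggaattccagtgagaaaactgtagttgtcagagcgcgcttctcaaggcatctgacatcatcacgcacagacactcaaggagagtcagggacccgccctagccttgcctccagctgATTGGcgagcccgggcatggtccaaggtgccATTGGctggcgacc
Cyp51 (chr5:4104698-4104947, minus strand): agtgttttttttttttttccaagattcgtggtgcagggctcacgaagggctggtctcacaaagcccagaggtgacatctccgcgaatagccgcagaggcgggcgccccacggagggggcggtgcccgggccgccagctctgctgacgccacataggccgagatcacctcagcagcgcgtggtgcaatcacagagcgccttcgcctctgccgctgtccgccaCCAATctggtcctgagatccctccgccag
Msmo1 (chr8:64733579-64733828, minus strand): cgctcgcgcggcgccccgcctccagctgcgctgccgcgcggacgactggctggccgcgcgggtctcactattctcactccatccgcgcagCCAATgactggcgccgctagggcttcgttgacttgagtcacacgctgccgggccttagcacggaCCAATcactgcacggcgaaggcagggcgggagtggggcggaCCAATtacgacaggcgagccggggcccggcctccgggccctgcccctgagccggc
Hmgcs1 (chr13:119690101-119690350, plus strand): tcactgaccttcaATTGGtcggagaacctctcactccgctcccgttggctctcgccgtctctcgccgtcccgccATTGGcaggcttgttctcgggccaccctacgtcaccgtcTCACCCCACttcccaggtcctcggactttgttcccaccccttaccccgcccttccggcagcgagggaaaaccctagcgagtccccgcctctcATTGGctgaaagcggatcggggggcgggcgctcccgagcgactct

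RefSeq promoters were found for 18 of the 26 genes, 22 promoters in all. A CCAAT box stood in 16 of the 22 (72.7%), against 33.8% of 32851 mouse promoters of the same length. TCACNCCAC, searched on both strands, stood in 1 of 22 (4.55%), that of Hmgcs1, against 1.05% of all promoters. A match describes letters in a window and is not a bound site. The 4 promoters of genes that did not pass the test all held a CCAAT box, against 12 of 18 (66.7%) among those of genes that fell. These 18 promoters belong to 14 genes, some with several starts. Of these genes, only Scap and Acat2 had no CCAAT box in any promoter.

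Idi1, which isomerises isopentenyl diphosphate, was at 22.9, 26, 51.2, 39.7 and 37.1 CPM in the control livers and 11.1, 12.1, 4.51, 12.2 and 12.2 CPM in the HF/HS livers. The groups did not overlap, and animal 302 was the lowest of the HF/HS livers. The log2 fold change was -1.76 ± 0.28 (adjusted p = 7.98e-06). Cyp51, the lanosterol demethylase, was at 166, 188, 349, 266 and 235 CPM in the control livers and 86.95, 94.7, 36.2, 102 and 84.3 CPM in the HF/HS livers. Again the groups did not overlap, and 302 was lowest, with a log2 fold change of -1.57 ± 0.24 (adjusted p = 3.77e-06). Msmo1, a later demethylase of the same branch, was at 78.6, 99.3, 149, 108 and 134 CPM in the control livers and 54.5, 51, 26.6, 54.9 and 52.5 CPM in the HF/HS livers, a log2 fold change of -1.25 ± 0.23 (adjusted p = 5.91e-05) with no overlap. Sqle, squalene epoxidase, fell by 1.48 (adjusted p = 0.0145), a call that was lost without control animal 381 (-1.24, adjusted p = 0.0546) or without HF/HS animal 302 (-1.27, adjusted p = 0.0544).

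Hmgcs1, the synthase of an early step of the pathway, was at 184, 209, 392, 281 and 235 CPM in the control livers and 198, 165, 105, 215 and 199 CPM in the HF/HS livers. The groups overlapped, with control animal 381 highest and HF/HS animal 302 lowest, and the log2 fold change of -0.56 ± 0.25 did not pass the test (adjusted p = 0.1). Without control animal 381 the list counted 15 falls, and without HF/HS animal 302 it counted 16, against 18 to 19 under other scalings and tests of all libraries and 12 both in the fit of the 10 libraries alone and in the covariate fit. Of the 16 tested genes of cholesterol efflux and oxysterol receptor targets, 2 rose (1 in the covariate fit) and 0 fell. They were Abcg5, part of the sterol pump into bile, at 0.50 ± 0.16, and the apolipoprotein Apoe, at 2722 ± 91.8 CPM in controls and 3325 ± 248 CPM on HF/HS (SD, n = 5), a log2 fold change of 0.29 ± 0.06 (adjusted p = 0.000486). The call of Abcg5 (adjusted p = 0.0231) was lost in 4 of the 10 fits that each left out a library, the lowest log2 fold change being 0.42 without control animal 381.

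**Figure D2:**
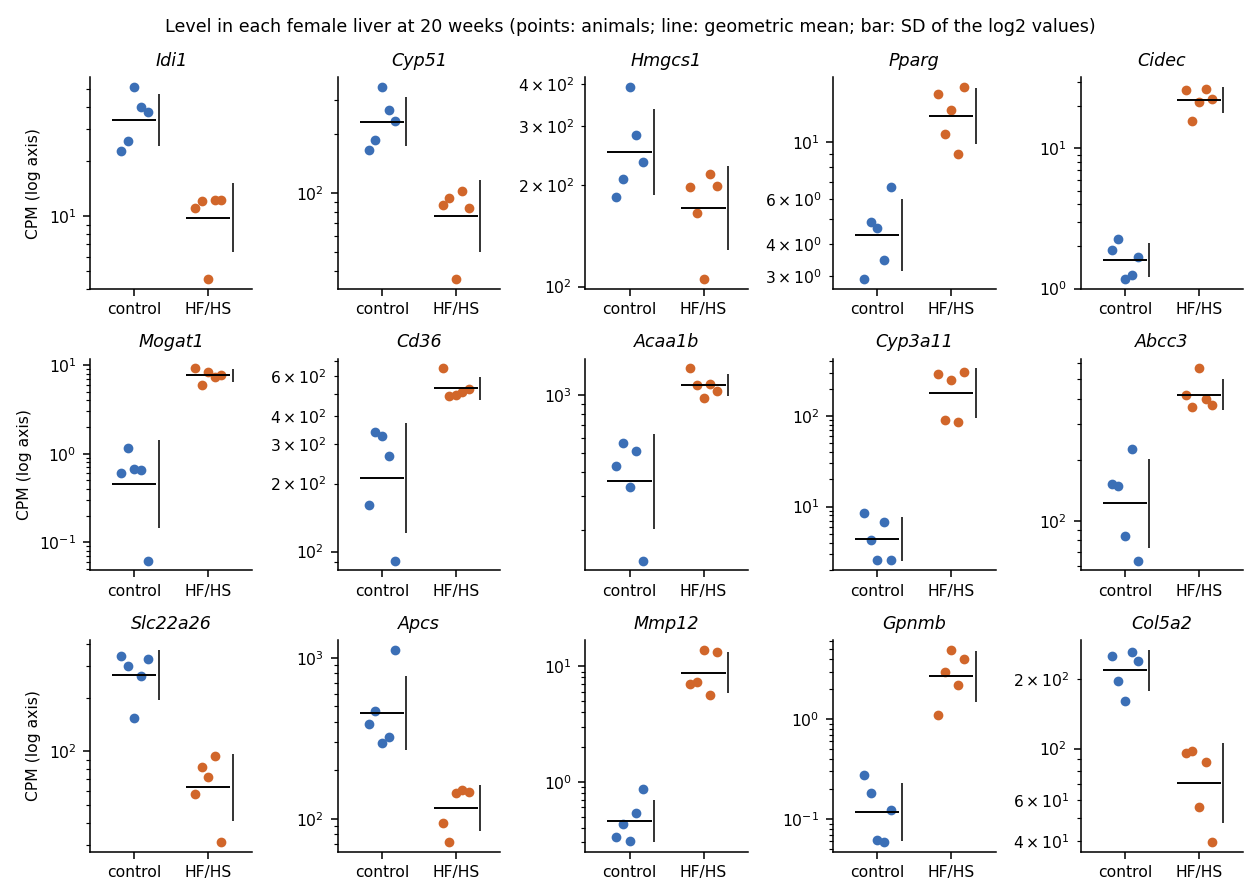
Level in each of the 10 female livers, in CPM on a log axis, for 15 genes. Points are animals, the line is the geometric mean and the bar the SD of the log2 values. The groups overlap for Hmgcs1, while in the other 14 panels no HF/HS point lies within the range of the controls.

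Among 27 genes for droplet proteins and for the uptake of fatty acids, 12 rose and 0 fell, with a median of 0.42. Pparg, which encodes PPARγ, was at 2.92, 4.88, 4.61, 3.49 and 6.697 CPM in the control livers and 15.4, 10.8, 13.4, 8.95 and 16.4 CPM in the HF/HS livers. Each HF/HS liver exceeded every control, a log2 fold change of 1.52 ± 0.29 (adjusted p = 0.000137). Cidec (chr6:113424634-113435760, minus strand), the droplet-fusion protein also known as FSP27 and a PPARγ target, was at 1.88, 2.26, 1.17, 1.24 and 1.67 CPM in the control livers and 26.1, 15.6, 21.4, 26.7 and 22.5 CPM in the HF/HS livers. Its levels were tight in both groups and far apart, with a log2 fold change of 3.76 ± 0.67 (adjusted p = 4.49e-05). Fitm1, which helps droplets form at the endoplasmic reticulum, was at 0.883, 2.502, 1.11, 1.42 and 0.868 CPM in the control livers and 15.2, 7.46, 11.7, 9.96 and 11.98 CPM in the HF/HS livers, a log2 fold change of 3.04 ± 0.46 (adjusted p = 3.26e-06).

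Of 12 genes for droplet coat proteins, 6 rose. Plin4 was at 14.6, 7.995, 19.7, 5.26 and 5.08 CPM in the control livers and 19.9, 14.3, 28.6, 55.4 and 38 CPM in the HF/HS livers, where the groups overlapped, and its rise of 1.56 ± 0.47 (adjusted p = 0.0131) was not called without HF/HS animal 421 (1.24, adjusted p = 0.0647). Cd36, a fatty acid translocase and PPARγ target, was at 160.5, 339.8, 325, 266 and 91.3 CPM in the control livers and 647, 488, 491, 509 and 524 CPM in the HF/HS livers. The HF/HS livers lay together above the controls, a log2 fold change of 1.17 ± 0.27 (adjusted p = 0.00114). Among 24 genes of fatty acid and triglyceride synthesis, 4 rose and 0 fell, namely Mogat1, Scd2, Srebf1 and Agpat2. Mogat1, a monoacylglycerol acyltransferase, was at 0.607, 1.16, 0.676, 0.6501 and 0.06201 CPM in the control livers and 9.17, 5.95, 8.36, 7.35 and 7.84 CPM in the HF/HS livers. It rose without overlap, by 3.59 ± 0.61 (adjusted p = 2.37e-05) on the log2 scale. Srebf1, the master gene of lipogenesis, was at 298, 294, 321, 333 and 255 CPM in the control livers and 569.9, 702, 637, 574 and 728 CPM in the HF/HS livers. No control reached the HF/HS range, a log2 fold change of 1.10 ± 0.23 (adjusted p = 0.000395). Scd2, a stearoyl-CoA desaturase that adult liver expresses weakly, rose by 2.27 ± 0.39, from 8.93 to 12.2 CPM in controls to 21.0 to 100.3 CPM on HF/HS.

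The large lipogenic enzymes Scd1 and Fasn did not pass edgeR's test. Scd1, the main hepatic desaturase, was at 14430, 15720, 21730, 12910 and 8074 CPM in the control livers and 23330, 20460, 14990, 23040 and 18430 CPM in the HF/HS livers, a log2 fold change of 0.46 ± 0.17 (adjusted p = 0.0502). It was called without control animal 381 (0.64, adjusted p = 0.0071) or HF/HS animal 302 (0.53, adjusted p = 0.0333), and on all libraries by DESeq2 (adjusted p = 0.0404) and voom (adjusted p = 0.0114). Fasn, fatty acid synthase, was at 2404, 2466, 7930, 3155 and 1067 CPM in the control livers and 4529, 4353, 1595, 5273 and 4772 CPM in the HF/HS livers. Control animal 381 was the highest of all livers and HF/HS animal 302 the lowest of its group, and the log2 fold change was 0.27 ± 0.37 (adjusted p = 0.66). The median log2 fold change of the 24 genes was 0.04 with all libraries and 0.43 without control animal 381.

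Of 32 tested genes of fatty acid oxidation and ketone body formation, 14 rose and 1 fell, with a median of 0.29, and in 13 of the 32 all HF/HS livers lay above all control livers. The peroxisomal and microsomal enzymes, classical PPARα targets, had the larger changes, with 7 of 12 higher and a median of 0.72, compared with 6 of 12 mitochondrial enzymes and a median of 0.28. Acaa1b, the peroxisomal thiolase, was at 430.2, 563, 332, 515 and 138 CPM in the control livers and 1374, 1130, 965, 1143 and 1051 CPM in the HF/HS livers. The groups were separate, and control animal 383 was the lowest liver, with a log2 fold change of 1.52 ± 0.29 (adjusted p = 0.000132). Cyp4a31, one of the near-identical Cyp4a hydroxylases, rose by 1.42 ± 0.41. Ppargc1a, the coactivator of mitochondrial genes, was the 1 member that fell, by 0.74. The PPARα-driven hormone gene Fgf21 gave 0.28 ± 0.31 (adjusted p = 0.565), and Pdk4, a fasting-induced kinase, gave -0.47 ± 0.30 (adjusted p = 0.294). Of 21 nuclear oxidative phosphorylation genes, edgeR called 0, DESeq2 1 and limma voom 1, with 3 under an unadjusted p of 0.05 and a median of 0.01. Without control animal 383, 4 of them were lower.

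Bile acid genes moved in both directions, 4 higher (Abcc3, Abcc4, Acox2 and Abcb4) and 7 lower of 28, the latter 4 in the covariate fit. Abcc3, a basolateral exporter of bile acid conjugates, was at 151, 148, 84.5, 226 and 63.7 CPM in the control livers and 416, 365, 563, 399.7 and 373 CPM in the HF/HS livers. All HF/HS livers were above the controls, and 302 was the highest, with a log2 fold change of 1.65 ± 0.30 (adjusted p = 5.34e-05). Cyp39a1, an oxysterol 7α-hydroxylase more abundant in female liver, was at 90.8, 48.8, 87.5, 67.2 and 64.9 CPM in the control livers and 28.1, 29.4, 34.2, 47.6 and 37 CPM in the HF/HS livers, without overlap, a log2 fold change of -1.03 ± 0.26 (adjusted p = 0.00271). Cyp7a1, which catalyses the first step of the classical bile acid pathway, was at 34.1, 81.8, 82.01, 26.1 and 239 CPM in the control livers and 131, 152, 601, 73.5 and 60.01 CPM in the HF/HS livers. Single livers of each group (383 and 302) were far above the rest, and the log2 fold change of 1.14 ± 0.56 did not pass the test (adjusted p = 0.147). Without control animal 383 it was 1.85 (adjusted p = 0.0213). The call of Abcc4 was lost in 3, and that of Abcb4 in 1, of the 10 fits with a library left out.

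In glucose metabolism and insulin signalling, 4 genes rose, among them Slc2a1, Pcx and Trib3, and 3 fell (Irs2, Insr and Igf1) of 28, near the background. Irs2, the insulin receptor substrate that mediates much of insulin action in liver, was at 159, 81.2, 139, 129 and 101 CPM in the control livers and 69.02, 67.8, 68.1, 97.1 and 48.7 CPM in the HF/HS livers. HF/HS animal 421 reached the control range while the rest stayed below it, and the log2 fold change was -0.80 ± 0.18 (adjusted p = 0.00137). Trib3, a pseudokinase that restrains Akt, rose by 0.76 ± 0.23 (adjusted p = 0.0122), which was lost without control animal 383 (0.59, adjusted p = 0.0608) or HF/HS animal 302 (0.62, adjusted p = 0.0636). Leaving out single libraries also ended the call of Slc2a1 in 5 and of Igf1 in 5 of 10 fits, and the 4 rises of the glucose list became 2 without control animal 382 or HF/HS animal 302 or 421, and 1 without control animal 383, and 2 in the covariate fit. In amino acid, one-carbon and urea metabolism, 2 genes rose (Bhmt and Shmt2) and 7 fell of 27, but the 7 falls became 4 without control animal 202 or HF/HS animal 302, 1 in the fit of the 10 libraries alone and 0 in the covariate fit. Bhmt, which remethylates homocysteine with betaine, was at 1155 ± 103 CPM in controls and 1515 ± 110.1 CPM on HF/HS (SD, n = 5), a log2 fold change of 0.39 ± 0.10 (adjusted p = 0.00327).

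Of 27 xenobiotic metabolism genes, 7 rose and 0 fell, with 4 rises in the fit of the 10 libraries alone and in the covariate fit and 2 falls in voom. The receptor genes on the list did not pass the test (0 of 3), and 5 of 12 phase 1 and 2 of 12 phase 2 enzymes rose. Beside Cyp3a11, the glutathione transferase Gsta1 was at 0.0552, 0, 0.0615, 0.177 and 0 CPM in the control livers and 3.37, 0.816, 0.366, 0.873 and 1.003 CPM in the HF/HS livers. Its level was close to nothing on the control diet and highest in animal 292 on HF/HS, with a log2 fold change of 4.20 ± 0.91 (adjusted p = 0.000608), not called in voom (adjusted p = 0.0581). Cyp2b10, the usual target of the receptor CAR, was at 1.103, 0.427, 1.04, 0.355 and 0.3101 CPM in the control livers and 1.09, 1.28, 1.098, 6.76 and 4.45 CPM in the HF/HS livers. Animals 421 and 422 were high and the other HF/HS livers overlapped the controls, with a log2 fold change of 2.15 ± 0.56 (adjusted p = 0.00409), not called in voom either (adjusted p = 0.0725). The Cyp3a, Cyp4a, Cyp2b and Gsta families hold near-identical genes whose reads can be misassigned.

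Among 18 NRF2 and oxidative stress genes, 4 rose (Slc7a11, Srxn1, Gpx4 and Taldo1; 2 in the covariate fit) and 1 fell (G6pdx). Srxn1, sulfiredoxin, was at 33.3, 40.2, 49.4, 37.9 and 34.8 CPM in the control livers and 76.8, 71.05, 56.6, 72.2 and 63.9 CPM in the HF/HS livers. No liver overlapped, and the log2 fold change was 0.80 ± 0.14 (adjusted p = 4.05e-05). Slc7a11, the cystine importer, rose by 3.40 ± 0.75 from at most 0.122 CPM in controls. G6pdx, the entry enzyme of the pentose phosphate pathway, was at 43.03, 57.7, 326, 55.7 and 16.6 CPM in the control livers and 25.3, 32.6, 8.66, 30.98 and 25.3 CPM in the HF/HS livers. The call rested on control animal 381: the log2 fold change was -2.02 ± 0.42 (adjusted p = 0.000413) with it and -0.83 (adjusted p = 0.0716) without it. The call of Gpx4 was lost in 8 of 10 fits that left out a library.

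**Figure D3:**
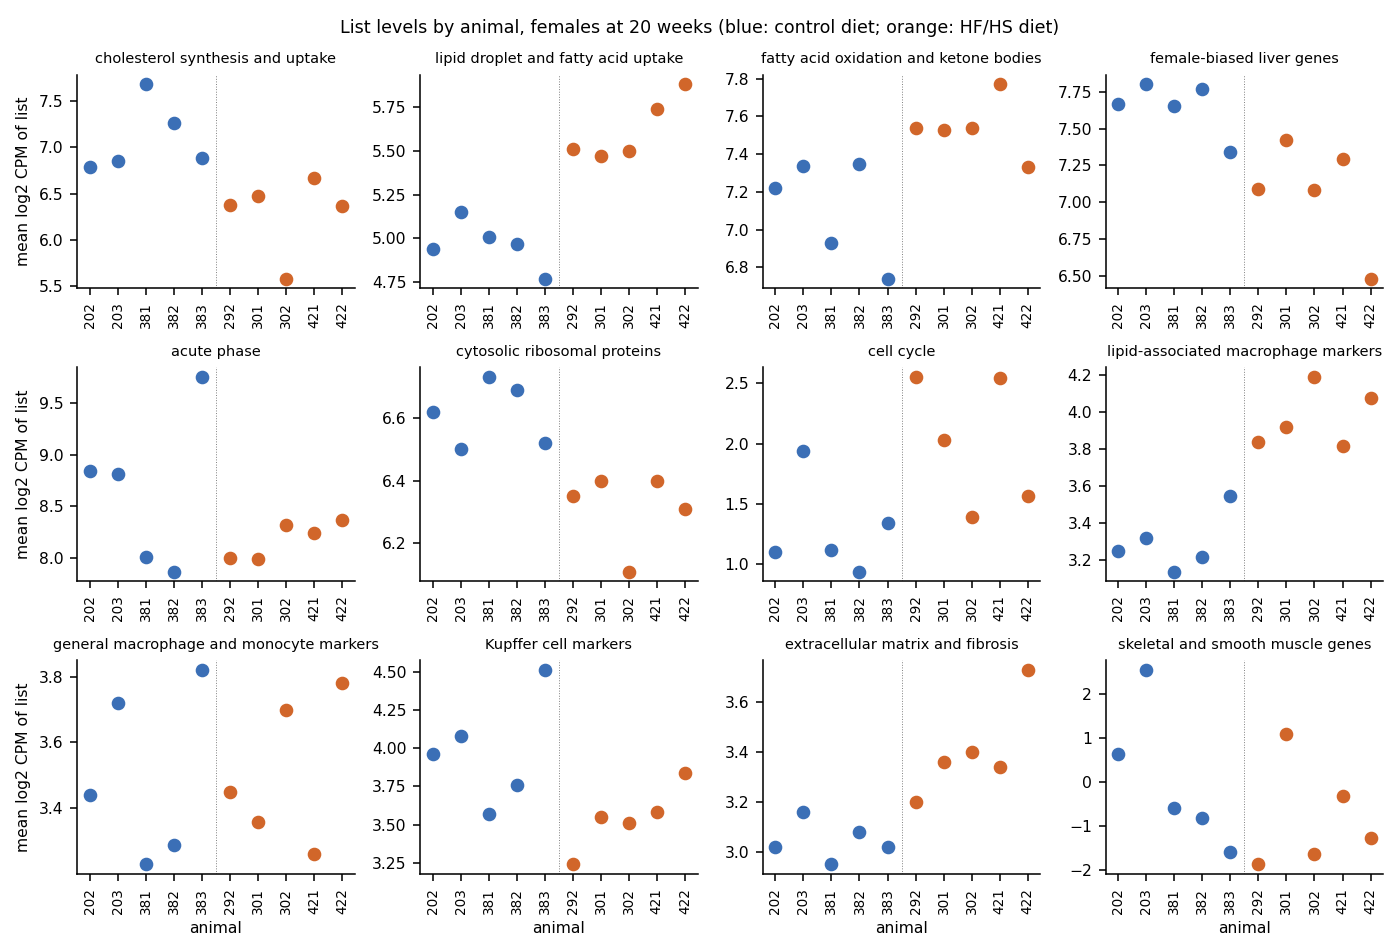
Mean log2 CPM of 12 gene lists in each animal, with control animals in blue and HF/HS animals in orange. The lipid droplet, cholesterol synthesis, ribosomal protein, lipid-associated macrophage and matrix lists separate the diets, control animal 383 is highest for acute phase genes, and muscle genes peak in control animal 203.

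Genes with sex-biased expression in mouse liver, set by the pattern of growth hormone release, changed in both directions. Of 20 male-biased genes, 3 rose (Cyp4a12a, Cyp4a12b and Elovl3) and 2 fell (Hsd3b5 and Slco1a1; 1 in voom and in the covariate fit). Of 26 tested female-biased genes, 1 rose (Cd36) and 4 fell, among them Slc22a26, Cyp3a16 and Cyp39a1, with a median of -0.34. The count of falls was 10 in voom and 7 in the covariate fit. Slc22a26, an organic anion transporter with the close neighbour Slc22a27, was at 340.5, 298, 154, 265 and 328 CPM in the control livers and 57.99, 82.1, 72.05, 94.1 and 31.3 CPM in the HF/HS livers. No HF/HS liver reached the control range, a log2 fold change of -2.04 ± 0.40 (adjusted p = 0.000165).

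The male-biased hydroxylase Cyp4a12b was at 14.01, 4.46, 4.43, 15.9 and 3.35 CPM in the control livers and 33.3, 83.5, 34.8, 91.9 and 46.1 CPM in the HF/HS livers. All HF/HS livers were higher, a log2 fold change of 2.77 ± 0.35 (adjusted p = 8.5e-08), and its close copy Cyp4a12a rose by 2.41 ± 0.42. Cyp4a12b was at 234 to 330 CPM in control males and 241 to 314 CPM in males on HF/HS at 20 weeks, so the females on HF/HS stayed below every male. In the other direction, male-biased Hsd3b5 was at 17.3, 2.197, 22.7, 17.6 and 7.69 CPM in the control livers and 0.337, 2.798, 0.488, 3.35 and 0.314 CPM in the HF/HS livers, with overlap between the groups and a log2 fold change of -3.19 ± 0.78 (adjusted p = 0.00229) that was not called in voom (adjusted p = 0.0705). The call of Slco1a1 was lost in 6 of 10 fits with a library left out.

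Acute phase genes fell in 7 of 23 and rose in 0, with a median of -0.79. Apcs, serum amyloid P, was at 389, 469, 296, 325 and 1121 CPM in the control livers and 94.2, 71.9, 144, 151 and 146 CPM in the HF/HS livers. HF/HS livers were all below the controls, of which 383 was much the highest, with a log2 fold change of -2.10 ± 0.59 (adjusted p = 0.00761). Itih3, an inter-α-trypsin inhibitor chain, was at 1800, 1368, 1036, 1345 and 3386 CPM in the control livers and 482, 658, 646, 711 and 686 CPM in the HF/HS livers, a log2 fold change of -1.49 ± 0.32 (adjusted p = 0.000621) without overlap. Serpina3n was at 468, 424, 311, 335 and 1145 CPM in the control livers and 229.9, 246, 327, 268 and 284 CPM in the HF/HS livers. Its fall of 0.99 (adjusted p = 0.0256) was not called without control animal 383 (-0.52, adjusted p = 0.251). Leaving that animal out of the acute phase list left 5 falls, and its median became -0.33, and voom gave a median of -0.30. The calls of Apcs and Itih3 held in all 10 fits with a library left out.

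In bulk liver RNA, a change in the number of cells of a type and a change in RNA per cell cannot be told apart. Lipid-associated macrophages, which gather around steatotic hepatocytes, were represented by 14 marker genes, of which 4 rose (Gpnmb, Mmp12, Itgax and Cd63) and 1 fell (Fabp5). In voom 1 rose (Mmp12), and the calls of Gpnmb (adjusted p = 0.124), Itgax (0.0652) and Cd63 (0.112) were lost. Gpnmb, a lysosomal glycoprotein of lipid-laden macrophages, was at 0.276, 0.183, 0.0615, 0.0591 and 0.124 CPM in the control livers and 1.09, 2.97, 4.94, 2.18 and 4.01 CPM in the HF/HS livers. All HF/HS livers exceeded all controls, though counts were low, with a log2 fold change of 4.37 ± 0.93 (adjusted p = 0.000544). Mmp12, the macrophage elastase, was at 0.331, 0.427, 0.307, 0.532 and 0.868 CPM in the control livers and 6.99, 7.34, 13.8, 5.6 and 13.3 CPM in the HF/HS livers. The lowest HF/HS liver was several-fold above the highest control, a log2 fold change of 4.25 ± 0.66 (adjusted p = 6.47e-06).

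Trem2, the lipid-sensing receptor of these macrophages, was at 0.276, 0.427, 0, 0.414 and 0.372 CPM in the control livers and 0.757, 0.641, 1.22, 0.873 and 0.627 CPM in the HF/HS livers. No liver overlapped, yet the log2 fold change of 1.44 ± 0.56 did not pass edgeR's test (adjusted p = 0.0614), while DESeq2 called it (adjusted p = 0.0243). Spp1, osteopontin, was at 14.2, 15.1, 16.5, 19.4 and 13.5 CPM in the control livers and 20.9, 17.7, 27.4, 16.6 and 16.5 CPM in the HF/HS livers, a log2 fold change of 0.33 ± 0.27 (adjusted p = 0.406). Fabp5, a fatty acid binding protein that hepatocytes also express, was at 147, 142, 299.7, 155 and 313 CPM in the control livers and 24.6, 55.2, 9.52, 55.7 and 22.6 CPM in the HF/HS livers. It moved against the other members, with a log2 fold change of -2.65 ± 0.44 (adjusted p = 1.55e-05). Cd63 lost its call in 4 of 10 fits with a library left out.

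Of 19 general macrophage and monocyte markers, 1 was higher (Cx3cr1; 0 in voom) and 0 lower, with a median of -0.04. Cx3cr1, the fractalkine receptor, rose by 1.36 ± 0.42 (adjusted p = 0.0158), a call lost without control animal 381 (1.18), HF/HS animal 302 (1.16) or HF/HS animal 422 (1.19). Of 10 Kupffer cell markers, 0 passed edgeR's test in either direction (1 at an unadjusted p under 0.05, 0 in DESeq2 and 1 lower in limma voom, in the fit of the 10 libraries alone and in the covariate fit), and their median was -0.43. T and natural killer cell markers (0 of 8), B and plasma cell markers (0 of 8) and sinusoidal endothelial markers (0 of 15) counted 0, 2 and 0 members at an unadjusted p under 0.05 and 0 calls in edgeR, DESeq2 and limma voom. Without control animal 383, 3 sinusoidal endothelial markers and 1 Kupffer cell marker were called lower, and without control animal 203, 1 B or plasma cell marker was called higher. Of 7 tested neutrophil and mast cell markers, 1 was called, the receptor Kit, which fell by 0.46. Among 15 dendritic cell and antigen presentation markers, the class II genes H2-Eb1, H2-Ab1 and Cd74 rose and 0 fell. H2-Eb1 was at 19.5, 26.1, 15.7, 19.3 and 20.96 CPM in the control livers and 32.9, 28.5, 47.95, 30.2 and 43.2 CPM in the HF/HS livers, without overlap, a log2 fold change of 0.85 ± 0.26 (adjusted p = 0.0157). Animals 302 and 422 were the highest, and without 302 none of these 3 was called, H2-Eb1 being at 0.72 (adjusted p = 0.0637).

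Chemokine, cytokine and receptor genes rose in 6 and fell in 6 of 38, against 2 and 3 in voom, 3 and 2 in the fit of the 10 libraries alone and 3 and 1 in the covariate fit. Cxcl10, the interferon-induced attractant of T cells, was at 1.21, 1.95, 2.398, 2.54 and 1.92 CPM in the control livers and 7.91, 6.82, 10.2, 3.49 and 7.09 CPM in the HF/HS livers. HF/HS livers were each above the controls, a log2 fold change of 1.83 ± 0.37 (adjusted p = 0.000308). Ccl2, the monocyte attractant, was at 0.883, 0.427, 1.11, 0.709 and 1.05 CPM in the control livers and 3.87, 1.34, 2.75, 0.582 and 2.13 CPM in the HF/HS livers, where the groups overlapped, and its rise of 1.33 ± 0.43 (adjusted p = 0.021) was lost without control animal 203 (1.15), HF/HS animal 292 (1.01) or HF/HS animal 302 (1.196). Ccl22 rested on 20 counts against 1, a ratio of 22.3 (exact 95% interval 3.57 to 925). Control animal 383 held 53.1 CPM of Cxcl14 and 176 CPM of the neutrophil attractant Cxcl1, against at most 2.21 and 87.2 CPM in the other controls. Without it the falls of Cxcl14 (-3.37) and Cxcl1 (-2.95) became -0.23 and -2.03 and were not called. In its absence the list counted 5 higher and 1 lower, and without HF/HS animal 302 it counted 3 higher and 5 lower.

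Of 29 interferon response genes, 1 rose (Ubd) and 3 fell (Iigp1, Ifih1 and Ddx58), with a median of -0.15. The fit of the 10 libraries alone called 5 lower. Ubd, a ubiquitin-like protein induced by inflammatory cytokines, had 0 counts in the control libraries and 30 in the HF/HS libraries, so that it was at least 11.2-fold higher (floor of 3 counts over the control group), a gene that voom did not call (adjusted p = 0.132). Iigp1, an interferon-inducible GTPase, was at 524, 557, 398, 589 and 688 CPM in the control livers and 396, 378, 379, 399.8 and 309 CPM in the HF/HS livers, a log2 fold change of -0.57 ± 0.11 (adjusted p = 0.000276). HF/HS animals lay near or below the lower edge of the control range. Ddx58 lost its call in 4 of 10 fits with a library left out.

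Of 62 extracellular matrix and fibrosis genes, 9 rose and 3 fell (Col5a2, Dcn and Fn1), with a median of 0.30. Col1a1, the chief fibrillar collagen of scar, was at 4.36, 5.37, 3.07, 4.43 and 2.91 CPM in the control livers and 5.89, 10.3, 11.7, 8.95 and 18.2 CPM in the HF/HS livers. HF/HS livers were all above the controls, animal 422 most, with a log2 fold change of 1.46 ± 0.45 (adjusted p = 0.0159), and without 422 the change was 1.19 and not called (adjusted p = 0.0706), nor was Col1a1 called in voom (adjusted p = 0.149). Mmp13, an interstitial collagenase, was at 0.221, 0.305, 0.246, 0.355 and 0.06201 CPM in the control livers and 2.02, 1.17, 2.44, 0.8001 and 1.25 CPM in the HF/HS livers, without overlap, a log2 fold change of 2.65 ± 0.47 (adjusted p = 4.5e-05). Against this direction, Col5a2, a chain of the minor fibrillar collagen V, was at 250, 196, 161, 262 and 238 CPM in the control livers and 95.5, 97.98, 55.8, 87.3 and 39.5 CPM in the HF/HS livers. Each HF/HS liver was far below the controls, a log2 fold change of -1.56 ± 0.26 (adjusted p = 2.01e-05).

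Timp1, an inhibitor of matrix proteases often raised in fibrosis, stayed at or below 0.427 CPM in all 10 livers and did not pass the test (adjusted p = 0.159). Without HF/HS animal 422 the matrix list counted 4 rises, and without control animal 383 it counted 5. Among 16 hepatic stellate cell markers, 1 rose (Ngfr; 0 in the covariate fit) and 3 fell (Hhip, Reln and Bmp10), with a median of -0.22. Hhip, the hedgehog-interacting protein expressed by quiescent stellate cells, was at 23.1, 16.9, 21.5, 26.9 and 23.2 CPM in the control livers and 10.5, 12.5, 9.46, 10.3 and 9.09 CPM in the HF/HS livers. The groups were well separated, a log2 fold change of -1.11 ± 0.20 (adjusted p = 5.85e-05). Ngfr rose by 0.58 ± 0.15 and was not called without HF/HS animal 302 (0.41, adjusted p = 0.0628), and Bmp10 lost its call in 4 of 10 such fits. Without control animal 203, 5 stellate markers fell. The call of Fn1 was lost without control animal 383.

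Cell cycle genes rose in 14 of 33 and fell in 0, with a median of 0.92, though only 2 of the 33 were free of overlap. Birc5, survivin, was at 0.607, 1.53, 0.615, 0.6501 and 0.9302 CPM in the control livers and 3.62, 1.46, 1.65, 4.73 and 1.38 CPM in the HF/HS livers. Animals 292 and 421 were the highest, and control animal 203 lay within the HF/HS range, with a log2 fold change of 1.54 ± 0.34 (adjusted p = 0.000699). The mitotic activator Cdc20 was at 0.331, 2.38, 0.184, 0.355 and 0.744 CPM in the control livers and 4.46, 2.62, 1.16, 4.22 and 1.07 CPM in the HF/HS livers, showing the same pattern of animals, a log2 fold change of 1.74 ± 0.55 (adjusted p = 0.0185). Cdc20 lost its call in 5 of 10 fits with a library left out, the lowest value being 1.48, and reached 2.69 without control animal 203. Cyclin B2, Ccnb2, rose by 1.65 ± 0.49, a call lost without HF/HS animal 292 (1.35) or 421 (1.30), and 2.53 without control animal 203. Mki67, the proliferation antigen Ki-67, was at 4.303, 19.8, 8.36, 4.43 and 11.8 CPM in the control livers and 37.4, 15.04, 7.32, 28.6 and 9.41 CPM in the HF/HS livers and did not pass the test, at 0.99 ± 0.44 (adjusted p = 0.105), or 1.41 (adjusted p = 0.0271) without control animal 203. The count of 14 was 4 without HF/HS animal 292, 4 without 421 and 4 without control animal 382, 7 without control animal 202 or 381, 8 without 383, and 18 without control animal 203 and 20 without HF/HS animal 302. It was 5 in the fit of the 10 libraries alone and 2 in the covariate fit.

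Of 18 p53 and senescence genes, 0 were called in edgeR, DESeq2 or limma voom, with 1 at an unadjusted p under 0.05. The cell cycle inhibitor Cdkn1a was at 38.9, 22.6, 138, 20.9 and 17.4 CPM in the control livers and 56.1, 39.2, 20.7, 231 and 101 CPM in the HF/HS livers. Animal 381 among the controls and animal 421 on HF/HS were high, and the log2 fold change was 0.92 ± 0.46 (adjusted p = 0.156), but 1.83 (adjusted p = 0.00347) without control animal 381. Gdf15, a stress cytokine, gave 0.36 ± 0.35 (adjusted p = 0.51). On the list of 22 genes known from fetal liver or liver tumours, 6 rose and 1 fell (Akr1c18). Anxa2, an annexin abundant in liver tumours and non-parenchymal cells, was at 16.1, 16.8, 24.5, 17.7 and 10.5 CPM in the control livers and 62.4, 49.4, 38.8, 49.2 and 69.9 CPM in the HF/HS livers. Groups were separate, a log2 fold change of 1.65 ± 0.31 (adjusted p = 9.15e-05). Gpc1, a glypican, was at 4.14, 4.27, 3.01, 2.36 and 3.72 CPM in the control livers and 10.02, 14.1, 25.9, 12.2 and 11.04 CPM in the HF/HS livers, with animal 302 highest and a log2 fold change of 2.07 ± 0.27 (adjusted p = 3.25e-07). Ly6d rose by 2.23 ± 0.62, also without overlap. Afp, α-fetoprotein, was at or below 1.29 CPM in all 10 livers and did not pass the test, at -0.78 ± 0.33 (adjusted p = 0.0911).

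Of 15 tested markers of bile duct cells, Krt23 was the 1 called, and the median log2 fold change was 0.29, also upward. Averaged within each liver, these markers lay at 1.18 to 1.39 log2 CPM in controls and at 1.7 to 2.01 on HF/HS, without overlap. Krt23 is part of that average, and its share in the shift was not tested. Krt20, an intestinal keratin, had 0 counts in controls and 52 on HF/HS, at least 19.3-fold higher. Krt20 and Muc13 were the only 2 of the 10 genes on the gut and gallbladder list to pass the filter on low counts. Both were near 0 in controls and passed it through libraries where they were higher, so they do not speak for the list. Without the filter, 2 of 9 were higher and 0 lower. Hepatocyte markers fell in 6 and rose in 1 of 21, with a median of -0.17. The 6 falls became 2 in the fit of the 10 libraries alone and 1 in the covariate fit. Muscle genes counted 0 calls of 12 in edgeR, DESeq2 and limma voom and 0 at an unadjusted p under 0.05 (median -1.36, but 0.15 without control animal 203 and -3.47 without HF/HS animal 301), and their mean level, in log2 CPM, peaked in control animal 203 (2.54), HF/HS animal 301 (1.08) and control animal 202 (0.64). Pancreas genes (0 of 13, 1 at an unadjusted p under 0.05) and erythroid genes (0 of 3 and 0) were not called by these tools either. The mean log2 CPM of the pancreas genes was highest in control animal 203 (3.79), HF/HS animal 422 (3.46) and HF/HS animal 421 (2.08). Of 7 tested adipose tissue genes, 0 were higher and 1 was lower (1 and 1 in DESeq2, 1 and 0 in voom), with a median of 0.39. Their mean log2 CPM was 3.0 in HF/HS animal 422 and -0.17 to 1.56 in the other HF/HS livers, against 1.32 to 1.6 in controls. The part of these other tissues in other results was not tested.

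Of 30 cytosolic ribosomal protein genes, 26 fell and 0 rose, with a median of -0.32, and in 20 of the 30 all HF/HS livers lay below all control livers. Rps18, of the small subunit, was at 121, 114, 126, 130.4 and 108 CPM in the control livers and 92.6, 90.6, 76.6, 87.6 and 81.96 CPM in the HF/HS livers. The difference was small but the groups did not touch, a log2 fold change of -0.48 ± 0.08 (adjusted p = 7.96e-06). Rpl3, of the large subunit, had a log2 fold change of -0.52 ± 0.08 (adjusted p = 1.08e-05). Processed pseudogenes of this family can take reads from it. Over the alternative fits of the 10 or 60 libraries, with or without a library left out, the list counted 16 to 27 falls.

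In the endoplasmic reticulum stress and heat shock list, 5 of 26 fell (Xbp1, Sdf2l1, Hsp90b1, Dnajc3 and Pdia6) and 1 rose (Trib3; 0 in voom). The fit of the 10 libraries alone counted 3 falls and the covariate fit 2. Xbp1, the transcription factor of the unfolded protein response, was at 234, 231, 216, 243 and 480.2 CPM in the control livers and 188, 198, 160, 189 and 182 CPM in the HF/HS livers. Control animal 383 was well above the other controls, and the log2 fold change of -0.62 ± 0.15 (adjusted p = 0.00322) became -0.35 (adjusted p = 0.0616) without it. Sdf2l1, a chaperone cofactor, fell by 0.91 and was not called without 383 (-0.76) or without HF/HS animal 302 (-0.80), and the 5 falls of the list became 3 and 2 in these fits. Clock genes did not pass the test in 20 of 22, the 2 called being Ciart and Wee1, which were both higher and lost their calls in 3 and 4 of 10 fits with a library left out, with 1 clock gene called higher in voom and in the covariate fit, and 1 higher and 1 lower in the fit of the 10 libraries alone. Of 18 immediate early genes, 2 rose (Fosl1 and Egr2) and 3 fell (Egr1, Junb and Ier2), against 1 fall in voom and 0 rises in the fit of the 10 libraries alone. Egr1, a growth-induced zinc finger factor, was at 38.01, 96.9, 71.01, 31.9 and 91.03 CPM in the control livers and 25.1, 23.3, 17.4, 24.9 and 33.2 CPM in the HF/HS livers. The groups overlapped at the lowest control livers, with a log2 fold change of -1.41 ± 0.43 (adjusted p = 0.0154), not called in voom (adjusted p = 0.0744). Fosl1 rested on 28 counts against 1, a ratio of 31.2 (exact 95% interval 5.17 to 1280). Ier2 lost its call in 7 of 10 such fits, Egr2 without HF/HS animal 422 and Junb without control animal 383.

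Some calls of the genes named above were made by edgeR on all libraries and lost under another test or fit. In voom these were, beside those given, Prtn3, Crybb3, Plin4, Trib3, Cx3cr1, H2-Ab1, Ccl22, Cxcl14, Cxcl1, Ccl2, Ciart, Ddx58, Ier2 and Egr2. The fit of the 10 libraries alone lost Abcc4, G6pdx, Serpina3n, Cxcl14, Ccl2, Cdc20, Ccnb2, Xbp1, Wee1, Insr, Igf1, Dnajc3, Bmp10, Fn1, Ddx58 and Junb. The covariate fit lost these 16 and also Crybb3, Apoe, Trib3, Cxcl1, Ngfr, Birc5, Gpx4, Slco1a1 and Pdia6. Without a filter on low counts Gpx4, Slco1a1 and Ier2 were lost, and with small non-coding RNA genes removed Gpx4.

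Males of the strain, on the same diets for the same time, gave 2034 higher (14.3%) and 2062 lower genes (14.5%). Of the 1351 genes that rose in females, 590 also rose in males, which is 43.7% of the female and 29.0% of the male list. Of the 1521 that fell in females, 976 fell in males (64.2% and 47.3%), and 1 gene in each direction was called the opposite way. A test of the difference between the sexes (female minus male diet effect) called 89 genes (0.628%), 24 positive (0.169%) and 65 negative (0.458%). Of the 65 negative ones, 51 were called higher in males while 46 were not called in females.

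Cyp3a11 rose by 5.36 ± 0.54 in females and 2.17 ± 0.45 in males, a difference of 3.20 ± 0.66 (adjusted p = 0.0123). Control males were already at 79.8 to 335 CPM, against 2.54 to 8.55 CPM in control females. Cyp4a12b, 2.77 ± 0.35 in females, was 0.08 ± 0.30 in males, a difference of 2.69 ± 0.46 (adjusted p = 0.000667). Myom2, a myofibrillar protein gene, rose in females by 1.89 ± 0.48 and gave -0.67 ± 0.27 in males, a difference of 2.56 ± 0.55 (adjusted p = 0.0176). Of the 12 muscle genes, 9 were lower in males, with a median of -4.71 against -1.36 in females. The median difference of these muscle genes was 2.77, with 0 called for the difference. Whether muscle RNA had a part in the Myom2 difference was not tested. Palm2, encoding a paralemmin, differed by 3.59 ± 0.83 (adjusted p = 0.0267). In the opposite direction, Megf11 was at 5.41, 6.47, 5.47, 3.25 and 10.5 CPM in the control livers and 0.168, 0.408, 0.549, 1.02 and 0.439 CPM in the HF/HS livers. It fell in females by 3.56 without overlap and gave -0.42 ± 0.52 in males, a difference of -3.14 ± 0.72 (adjusted p = 0.0244).

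Bmp8b, a secreted growth factor of the BMP family, rose by 4.93 ± 0.75 in males and gave 0.46 ± 0.60 in females, a difference of -4.46 (adjusted p = 0.0219). The transporter Slc22a27 and the calcium pump Atp2b2 followed the same order, with differences of -3.20 ± 0.74 (adjusted p = 0.0267) and -2.72 ± 0.61 (adjusted p = 0.0219). The class II genes rose in both sexes, and for H2-Eb1 and Cd74, but not H2-Ab1 (adjusted p = 0.0526), the difference test gave a smaller rise in females. H2-Eb1 rose by 0.85 ± 0.26 in females and 2.33 ± 0.27 in males, a difference of -1.48 ± 0.37 (adjusted p = 0.0444), and Cd74 by 0.75 ± 0.23 and 2.03 ± 0.24, a difference of -1.27 ± 0.33 (adjusted p = 0.0493). The difference was lost for H2-Eb1 in 12 and for Cd74 in 13 of 20 fits that left out a library. Of the general macrophage markers 13 of 19 rose in males against 1 of 19 in females, and 3 of the 19 were called for the difference itself. For the matrix list, 39 of 62 rose in males and 9 in females, with 2 called for the difference. Of the 11 differences between the sexes given with values, 3 (Cyp3a11, Cyp4a12b and Myom2) were called in each of the 20 fits that left out a library. Among the 7 other alternatives, Cyp3a11 lost its call in 1, Myom2 in 3 and Cyp4a12b in 0. The number of genes called for the difference went from 89 to 34 without male control animal 181 and to 616 without male control animal 373.

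Females at later times came from other animals. At 40 weeks 2127 genes rose (15%) and 1890 fell (13.3%), and at 60 weeks 2751 rose (19.4%) and 2495 fell (17.6%). Of the genes that rose at 20 weeks, 645 also rose at 40 weeks (47.7% of the 20-week and 30.3% of the 40-week list) and 477 at 60 weeks (35.3% and 17.3%). Of those that fell, 719 fell again at 40 weeks (47.3% and 38.0%) and 599 at 60 weeks (39.4% and 24.0%). The number called the opposite way grew from 14 rises and 12 falls at 40 weeks to 99 and 56 at 60 weeks. A change of the diet effect from 20 to 40 weeks was called in 504 genes (3.55%), 243 positive (1.71%) and 261 negative (1.84%), and from 20 to 60 weeks in 2650 genes (18.7%), 1363 positive (9.61%) and 1287 negative (9.08%). The 504 became 189 without HF/HS animal 482 of 40 weeks and 191 without HF/HS animal 421.

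For several lipid genes the diet effect at 20 weeks was smaller or reversed later. Apoe, higher by 0.29 ± 0.06 at 20 weeks, gave -0.14 ± 0.06 at 40 and -0.31 ± 0.06 at 60 weeks, changes of -0.43 ± 0.09 (adjusted p = 0.004) and -0.59 ± 0.09 (adjusted p = 9.36e-06). Srebf1 went from 1.10 ± 0.23 to 0.04 ± 0.23 at 60 weeks, a change of -1.06 ± 0.32 (adjusted p = 0.0165). Mogat1 went from 3.59 ± 0.61 to 1.21 ± 0.50, a change of -2.39 ± 0.80 (adjusted p = 0.0316). Idi1, lower by 1.76 at 20 weeks, was at -0.45 ± 0.27 at 60 weeks, a change of 1.32 ± 0.39 (adjusted p = 0.014), whereas the change of Cyp51, 0.73 ± 0.33, was not called (adjusted p = 0.109). Krt23 and Sprr1a lost most of their rise by 60 weeks, with changes of -3.74 ± 0.80 (adjusted p = 0.00108) and -5.86 ± 1.30 (adjusted p = 0.00173).

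Other genes moved farther with time. Scd2 rose by 2.27 ± 0.39 at 20 weeks, 4.75 ± 0.41 at 40 and 4.96 ± 0.41 at 60 weeks, with changes of 2.48 ± 0.53 (adjusted p = 0.00641) and 2.69 ± 0.53 (adjusted p = 0.000437). The sulfotransferase Sult3a1, one of a pair of near-identical genes, gave -0.62 ± 0.42 at 20 weeks. That fall was not called by edgeR but was called by voom (-0.59, adjusted p = 0.0433). At 40 weeks Sult3a1 gave -4.92 ± 0.52, a change of -4.31 ± 0.64 (adjusted p = 9.9e-05). Osbpl3, an oxysterol-binding protein relative, did not pass edgeR's test at 20 weeks at 1.43 ± 0.64 (adjusted p = 0.106), although DESeq2 (0.03), the fit of the 10 libraries alone (0.0269) and the covariate fit (0.0453) gave an adjusted p under 0.05, and rose by 5.26 ± 0.60 at 40 weeks, a change of 3.83 ± 0.92 (adjusted p = 0.0147).

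Markers of inflammation and scar were among those whose diet effect was larger later. Spp1 gave 0.33 ± 0.27, 1.82 ± 0.27 and 2.63 ± 0.27 at 20, 40 and 60 weeks, with changes of 1.49 ± 0.38 (adjusted p = 0.0196) and 2.29 ± 0.38 (adjusted p = 5.24e-05). Col1a1 rose by 1.46 ± 0.45, 3.55 ± 0.46 and 3.96 ± 0.44, and its change to 60 weeks was 2.50 ± 0.62 (adjusted p = 0.00429). Of the matrix list, 9, 43 and 46 of 62 genes rose at the successive times, and from 20 to 60 weeks the diet effect changed upward in 28 and downward in 2. Of the general macrophage list, 1, 3 and 17 of 19 rose, and 15 changed upward. The ribosomal protein genes, 26 of 30 lower at 20 weeks, were lower in 24 at 40 weeks and in 0 at 60 weeks, and the diet effect on Rpl3 changed by 0.62 ± 0.12 (adjusted p = 0.000322) and that on Rps18 by 0.32 ± 0.11 (adjusted p = 0.0316), the latter lost in 13 of 20 fits that left out a library. Hhip fell further, from -1.11 ± 0.20 to -2.75 ± 0.23, a change of -1.64 ± 0.30 (adjusted p = 0.00023). The cholesterol synthesis list kept counts of 19, 19 and 17 falls of 26 at the successive times.

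**Figure D4:**
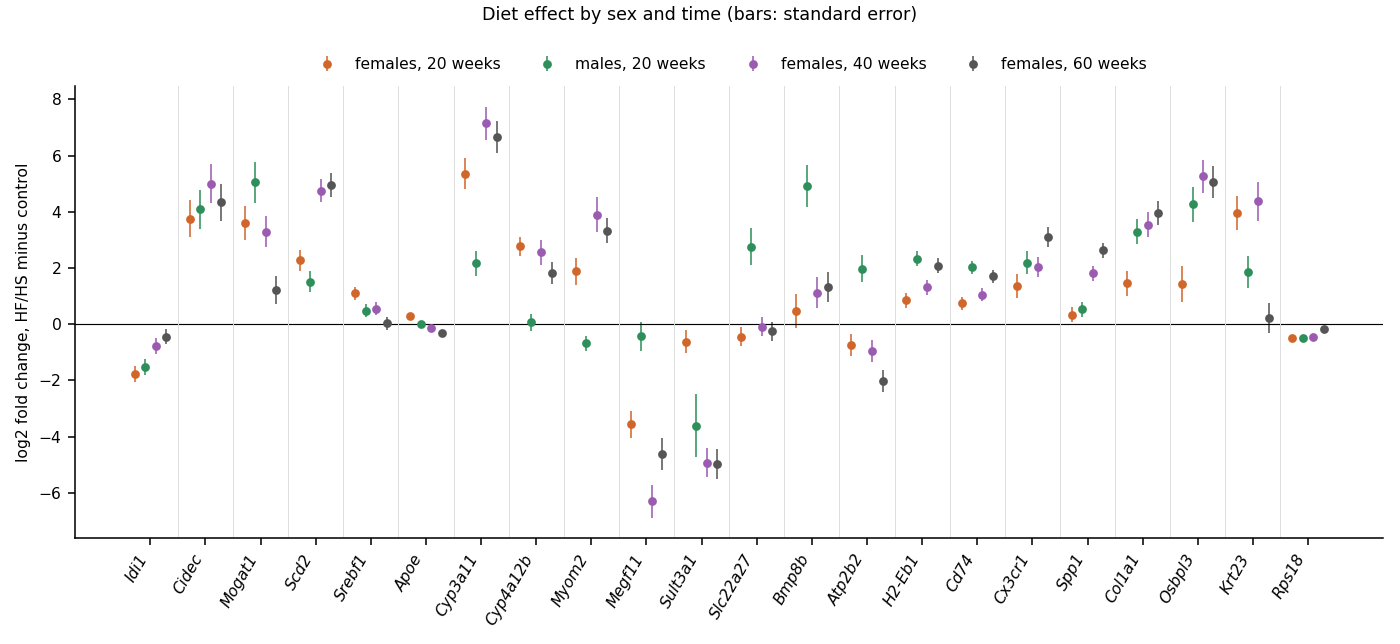
Diet effect as log2 fold change (HF/HS minus control) with its standard error for 22 genes, in females at 20 weeks (orange), males at 20 weeks (green) and females at 40 (purple) and 60 weeks (grey). Cyp3a11, Cyp4a12b and Myom2 are higher, and Megf11 and Bmp8b lower, in females than in males at 20 weeks, while Spp1, Col1a1 and Scd2 climb and Krt23 and Mogat1 drop by 60 weeks.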

How the data were processed

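The deposited table holds whole-number counts per gene for 60 liver libraries and 24982 gene entries, made by the authors from ribosomal RNA-depleted, stranded libraries of total RNA, per the labels' protocols. Per the submitters' processing notes, the build is mm10. Aligner, counter, annotation and use of strand: not given in the sources used here. Therefore reads of near-identical, overlapping and antisense genes may be misassigned. Of the entries, 26 had been turned into dates (0.201% of counts) and carry no gene name here.

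All 60 libraries were fitted as 12 group means with edgeR 4.0.16 in R 4.3.3 (TMM scaling, filterByExpr with a minimum count of 10, quasi-likelihood F test, Benjamini-Hochberg adjustment, threshold 0.05), leaving 14180 genes. The test was checked on simulated counts. CPM values use TMM-scaled library sizes. Alternatives were RLE scaling, DESeq2 1.42.0, limma 3.58.1 (voom with quality weights), no filter, removal of 1316 small non-coding RNA genes, a fit of the compared libraries alone, the animal-number range as a covariate, and each library left out; fits within each number range were added after seeing the data.

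Groups came from the labels. Named genes are the 10 highest and 10 lowest called genes of at least 1 CPM without overlap, up to 3 called genes per list, a panel of 28 genes, and the 4 highest and 4 lowest called genes of each difference; other named genes, such as Msmo1, Cxcl10 and remaining called list members, were chosen after their values were seen. Some genes that these rules name are not reported here; list counts include them. Members and the 40 lists were chosen with earlier results of these data known. Intervals and floors cover counting error only.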

Additional observations from a re-analysis of the deposited data

Results flagged for a closer look

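In 25 of 206 groups of 5 animals checked, over the genes described with values, the highest or lowest liver was separated from the others by more than Dixon's 95% critical value for 5 samples. Chance alone flags about 1 in 20 groups when values follow a normal distribution. The CPM were not put on a log scale, and some genes were chosen after their values were seen. That rate therefore need not hold here. Control animal 383 stood apart for Prtn3 (85.5 CPM), Crybb3 (24.7 CPM), Fabp12 (6.76 CPM), Cyp7a1 (239. CPM), Apcs (1121 CPM), Serpina3n (1145 CPM), Cxcl14 (53.1 CPM) and Xbp1 (480. CPM). HF/HS animal 302 stood apart for Idi1 (4.51 CPM), Cyp51 (36.2 CPM), Fasn (1595 CPM), Abcc3 (563. CPM), Cyp7a1 (601. CPM), Gpc1 (25.9 CPM) and Msmo1 (26.6 CPM). Control animal 381 stood apart for G6pdx (326. CPM) and Cdkn1a (138. CPM). HF/HS animal 292 stood apart for Cd36 (647. CPM), Gsta1 (3.37 CPM) and Itih3 (482. CPM). Control animal 382 stood apart for Ccl22 (0.0591 CPM), but only because it held the 1 count of the whole control group. HF/HS animal 422 stood apart for Iigp1 (309. CPM). Control animal 203 stood apart for Cdc20 (2.38 CPM), Ccnb2 (2.26 CPM) and Fosl1 (0.0610 CPM). The Fosl1 value is likewise the 1 count of the whole control group.

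Genes described above whose diet effect differed between groups by the test of the difference itself (edgeR, adjusted p under 0.05) are given with that difference. The diet effect differed between the sexes at 20 weeks (female minus male), with a positive log2 difference, for Cyp3a11 (3.20), Cyp4a12b (2.69), Cyp4a12a (2.18), Palm2 (3.59) and Myom2 (2.56). The diet effect differed between the sexes at 20 weeks (female minus male), with a negative log2 difference, for Megf11 (-3.14), H2-Eb1 (-1.48), Cd74 (-1.27), Bmp8b (-4.46), Slc22a27 (-3.20) and Atp2b2 (-2.72). The diet effect differed in females between 40 and 20 weeks (40 minus 20), with a positive log2 difference, for Scd2 (2.48), Cyp7a1 (2.68), Spp1 (1.49) and Osbpl3 (3.83). The diet effect differed in females between 40 and 20 weeks (40 minus 20), with a negative log2 difference, for Apoe (-0.43) and Sult3a1 (-4.31). The diet effect differed in females between 60 and 20 weeks (60 minus 20), with a positive log2 difference, for Idi1 (1.32), Scd2 (2.69), Spp1 (2.29), Cx3cr1 (1.74), H2-Eb1 (1.23), H2-Ab1 (1.10), Cd74 (0.95), Cxcl1 (3.14), Ccl2 (1.81), Col1a1 (2.50), Rpl3 (0.62), Rps18 (0.32), Osbpl3 (3.62) and Msmo1 (0.86). The diet effect differed in females between 60 and 20 weeks (60 minus 20), with a negative log2 difference, for Sprr1a (-5.86), Krt23 (-3.74), Mogat1 (-2.39), Apoe (-0.59), Srebf1 (-1.06), Bhmt (-0.41), Col5a2 (-0.99), Hhip (-1.64), Cdkn1a (-2.17), Gdf15 (-1.54), Ciart (-3.62) and Sult3a1 (-4.36). Of these, 3 of 11 between the sexes, 5 of 6 between 40 and 20 weeks and 13 of 26 between 60 and 20 weeks were called in every fit that left out a library.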

How the results depend on the processing

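In females at 20 weeks, counts of higher and lower genes stayed within 1.5 times of 1351 and 1521 under RLE scaling, DESeq2, voom, no filter and removal of small non-coding RNA genes, and whenever a library was left out (946 to 1170 higher and 1311 to 1671 lower). They were 713 and 732 when the 10 libraries were fitted alone, 592 and 605 with the animal-number range as a covariate, 88 and 110 within animals under 350 and 5 and 0 within those from 350, where fewer libraries were compared. The 89 sex differences became 176 (DESeq2), 41 (voom), 53 (no filter), 28 (compared libraries alone) and 26 (covariate), and 34 to 616 with a library left out. The 504 changes to 40 weeks became 1448 (voom) and 300 (no filter), and 189 to 667 with a library left out. The 2650 changes to 60 weeks stayed within 1.5 times, at 1885 to 3558 with a library left out. The cause was not tested. Of the 117 called genes named, 67 were called under all 17 alternatives, and no called gene changed direction. Voom ended 24 of these calls, the covariate 25, leaving out control animal 383 ended 17 and leaving out HF/HS animal 302 ended 18. No paired analysis was possible because the replicate numbers are animal numbers, which no compared groups share. Genes near the detection limit rest on few counts and their fold changes are imprecise.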
